A study of Mus musculus with 13 samples.

Results

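The genes described here are the cytokines, receptors and vessel addressins that organise lymphoid tissue. They were chosen by name, from a list of 10 genes, and 8 of them (Cxcl13, Cxcr5, Ccr7, Lta, Ltb, Ltbr, Glycam1 and Madcam1) have a row among the 21225 genes of the expression table. The other 2, Ccl19 and Ccl21a, which encode the chemokines that bind Ccr7, are not analysed here. Aortic RNA of male C57BL/6 mice was hybridised to 13 arrays. Of these, 3 held RNA of young mice in which the mineralocorticoid receptor was intact (MR-intact, wild type in the labels), 3 of young mice lacking the receptor in smooth muscle cells (knockout), 4 of aged MR-intact mice and 3 of aged knockout mice. Young was 3 to 4 months in the design text and 3 months in the extraction protocol, and aged was 12 months. No source used here gives the Cre line or promoter behind the smooth muscle deletion, nor states that each array held a separate animal, so that p-values reflect only how these arrays scatter, which may be technical.

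Lymphoid organs are built by an exchange between lymphocytes and stromal cells. Lymphotoxin made by lymphoid cells acts on a receptor on stromal cells, which signals through the non-canonical NF-kB pathway and leads these cells to make the chemokines that draw B cells, T cells and dendritic cells into separate zones. High endothelial venules display sugar-decorated addressins to which lymphocytes attach as they leave the blood. The same genes mark lymph nodes and the lymphoid aggregates that can form in the outer layer of an artery or in the fat around it, so that tissue left on a dissected vessel can carry them too.

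The clearest feature of these genes was a group of arrays. Cxcl13, Cxcr5, Ccr7, Lta and Glycam1 each had their 4 highest readings on the 3 aged knockout arrays and on young knockout array 3. None of the 8 genes passed the test across all genes in any of 6 contrasts. In aged aorta, knockout arrays read higher than MR-intact arrays for 6 of the 8, by 0.64 to 2.93 on the log2 scale, with adjusted p-values of 0.0578 to 0.103. Aging in MR-intact aorta gave differences of -0.12 to 0.16.

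Levels are log2 values on the scale the authors deposited, and a level is compared between arrays for the same gene, not between genes. Array medians lay between 5.85 and 5.97. The deleted gene Nr3c2, which encodes the mineralocorticoid receptor, read 6.26, 6.09 and 6.42 on young knockout arrays against 6.62 to 6.69 with the receptor intact, and 6.14, 6.22 and 6.58 in aged knockout against 6.80 to 7.24 in aged MR-intact aorta, so no knockout array reached an MR-intact one of its age. The knockout minus MR-intact difference was -0.69 (SE 0.13, limma adjusted p = 0.0599) in aged aorta. The position of its probes relative to the deleted part is unstated in the sources used. Smooth muscle markers averaged 10.13 to 11.23 over the arrays and adipocyte markers 10.66 to 11.09, so both smooth muscle and fat were present on every array. A letter in the sample titles separates aged from young arrays, and whatever it stands for cannot be told apart from age.

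The promoters of 5 genes are shown. Cxcl13, Lta and Glycam1 had their 4 highest readings on the same arrays, Ltb was high on 3 of those 4, and Madcam1 did not share the pattern. Madcam1 holds the same NF-kB type of sequence as Ltb, and whether such sequences go with the levels was not tested. Each is the 250 bases before the gene's start in RefSeq, build GRCm38.p6, written 5′ to 3′ on the gene's strand. Cxcl13 lies at chr5:95956689-95956938 and is read on the plus strand, as are Ltb at chr17:35194257-35194506 and Madcam1 at chr10:79664309-79664558. Lta at chr17:35205352-35205601 and Glycam1 at chr15:103565082-103565331 are read on the minus strand. Capitals mark the letters searched for on both strands: the NF-kB consensus, GGAGATTTG, an NF-kB type of sequence described for RelB at Cxcl13, and TATAAA, the TATA box.
Cxcl13: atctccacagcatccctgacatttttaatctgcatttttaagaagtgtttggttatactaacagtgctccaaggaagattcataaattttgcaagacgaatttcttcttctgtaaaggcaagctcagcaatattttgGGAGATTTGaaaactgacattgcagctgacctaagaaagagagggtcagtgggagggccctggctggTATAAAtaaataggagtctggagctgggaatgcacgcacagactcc
Lta: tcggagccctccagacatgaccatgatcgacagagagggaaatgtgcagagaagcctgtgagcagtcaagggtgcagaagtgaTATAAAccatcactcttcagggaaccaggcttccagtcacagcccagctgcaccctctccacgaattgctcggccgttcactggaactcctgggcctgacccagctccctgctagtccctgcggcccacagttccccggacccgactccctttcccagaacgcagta
Ltb: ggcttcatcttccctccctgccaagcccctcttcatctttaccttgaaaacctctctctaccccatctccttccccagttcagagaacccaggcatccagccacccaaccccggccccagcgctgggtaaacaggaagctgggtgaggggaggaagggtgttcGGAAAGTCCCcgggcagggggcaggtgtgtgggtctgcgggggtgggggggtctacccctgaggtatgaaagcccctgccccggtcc
Madcam1: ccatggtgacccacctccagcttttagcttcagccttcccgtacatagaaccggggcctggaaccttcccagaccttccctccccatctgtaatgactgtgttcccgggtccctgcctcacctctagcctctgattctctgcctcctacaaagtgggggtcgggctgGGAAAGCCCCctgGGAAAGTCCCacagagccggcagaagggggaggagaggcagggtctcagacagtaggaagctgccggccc
Glycam1: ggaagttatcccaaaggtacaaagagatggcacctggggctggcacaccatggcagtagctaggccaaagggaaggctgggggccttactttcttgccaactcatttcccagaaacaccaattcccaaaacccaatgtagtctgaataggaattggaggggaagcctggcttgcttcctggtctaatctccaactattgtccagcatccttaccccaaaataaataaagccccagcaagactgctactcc
The Cxcl13 promoter held GGAGATTTG at 113 to 105 bases before the start and TATAAA at 46 to 41 bases, and the Lta promoter held TATAAA at 167 to 162 bases. The NF-kB consensus stood on the opposite strand at 87 to 78 bases before the start of Ltb, and at 83 to 74 and 70 to 61 bases before that of Madcam1. The same letters, GGAAAGTCCC, filled the Ltb match and the nearer Madcam1 match. Of 32851 promoter windows of the same length, 3.9% held the NF-kB consensus, 0.231% held GGAGATTTG and 12.4% held TATAAA. In the Glycam1 window none of these motifs occurred. The motifs were chosen with the sequences in view, none overlaps another here, and a match describes the letters only. Promoters were found for 6 of the 8 measured genes, and those of Cxcr5 and Ccr7 were not in the RefSeq table used.

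Cxcl13, the chemokine that draws B cells into follicles, read 9.98, 9.76 and 8.42 on the aged knockout arrays and 6.73, 7.01, 5.94 and 6.21 on the aged MR-intact arrays. On young MR-intact arrays it read 6.44, 6.49 and 6.06, and on young knockout arrays 5.77, 6.13 and 8.30. All 3 aged knockout arrays thus lay above every other array, with young knockout array 3 close behind the lowest of them. Its mean was 9.39 ± 0.85 (SD, n = 3) for aged knockout arrays, then 6.73 ± 1.37 (SD, n = 3) for young knockout, 6.47 ± 0.49 (SD, n = 4) for aged MR-intact and 6.33 ± 0.23 (SD, n = 3) for young MR-intact ones. Only the aged knockout mean stood clear of the others, which lay within the spread of the young knockout arrays. The aged knockout minus aged MR-intact difference of 2.92 (SE 0.53), a 7.55-fold ratio, had a limma adjusted p of 0.0578.

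Cxcr5 encodes the receptor for Cxcl13 and is carried by B cells and follicular helper T cells. It read 5.58, 4.15 and 3.79 in aged knockout and 3.01, 3.03, 2.66 and 2.94 in aged MR-intact aorta. Its young readings were 2.78, 3.03 and 2.86 with the receptor and 2.66, 2.72 and 3.44 without it. As for Cxcl13, the aged knockout arrays were the highest of all and young knockout array 3 came next. On 11 of the 13 arrays Cxcr5 lay under the array's lower quartile of 3.89 to 4.14, a range where a reading may be background. Aged knockout arrays 1 and 2 were the exceptions, and array 2 read 4.15 against a lower quartile of 4.14. The aged knockout mean was 4.51 ± 0.95 (SD, n = 3) and the other group means 2.89 to 2.94, which do not differ beyond their spread. The difference between the aged genotypes was 1.60 (SE 0.33, limma adjusted p = 0.0686).

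Ccr7, the receptor that guides naive T cells and dendritic cells to the T cell zone, read 7.46, 7.24 and 6.26 in aged knockout and 5.73, 5.93, 5.84 and 5.50 in aged MR-intact aorta. For young mice the values were 5.91, 6.11 and 5.60 on MR-intact and 5.83, 5.64 and 6.90 on knockout arrays. Here young knockout array 3 read above aged knockout array 3, so the aged and young knockout groups overlapped while the aged genotypes did not. The aged knockout mean was 6.99 ± 0.64 (SD, n = 3) against 6.12 ± 0.68 (SD, n = 3) in young knockout aorta, while the MR-intact means of 5.87 and 5.75 differed by less than their spread. The aged genotypes differed by 1.24 (SE 0.31, limma adjusted p = 0.0839). The ligands of Ccr7 are the 2 listed genes with no row, so the ligand side of this pair was not compared.

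The lymphotoxin ligands Lta and Ltb form the membrane complex that engages the lymphotoxin beta receptor. Lta read 4.99, 4.40 and 4.25 in aged knockout, 4.01, 4.01, 3.84 and 3.78 in aged MR-intact, 3.75, 3.94 and 4.01 in young MR-intact and 3.98, 4.01 and 4.22 in young knockout aorta. The aged knockout arrays were again the highest, but array 3 exceeded young knockout array 3 by only 0.03. Lta lay under the array's lower quartile on 8 arrays, none of them aged knockout. Its group means were 4.55 ± 0.39 (SD, n = 3) in aged knockout and 4.07 ± 0.13 (SD, n = 3) in young knockout aorta, above 3.91 and 3.90 in the aged and young MR-intact groups, and the aged genotypes differed by 0.64 (SE 0.15, limma adjusted p = 0.0774).

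Ltb, which anchors that complex in the membrane, read 7.04, 6.66 and 5.13 in aged knockout and 5.03, 5.12, 5.03 and 4.50 in aged MR-intact aorta. Among young mice the readings were 4.88, 5.16 and 4.78 for MR-intact and 4.96, 5.13 and 5.95 for knockout. Aged knockout array 3 therefore lay just above the highest aged MR-intact array, below young knockout array 3 and below young MR-intact array 2, a rank under a young MR-intact array that none of Cxcl13, Cxcr5, Ccr7, Lta and Glycam1 had. The aged knockout mean was 6.28 ± 1.01 (SD, n = 3), followed by 5.35 ± 0.53 (SD, n = 3) in young knockout and by 4.94 and 4.92 in young and aged MR-intact aorta, and the aged genotypes differed by 1.35 (SE 0.37, limma adjusted p = 0.103).

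Ltbr, the receptor for that complex on stromal cells and macrophages, had little spread. It read 6.52, 6.61 and 6.76 in aged knockout, 6.79, 6.83, 6.69 and 6.80 in aged MR-intact, 6.87, 6.91 and 6.82 in young MR-intact and 6.76, 6.94 and 6.86 in young knockout aorta. The aged knockout mean, 6.63 ± 0.12 (SD, n = 3), was the lowest, below 6.78, 6.85 and 6.87 for aged MR-intact, young knockout and young MR-intact arrays. Over all 13 arrays the readings spanned 0.42, against 4.22 for Cxcl13. The difference between the aged genotypes was -0.14 (SE 0.07, limma adjusted p = 0.325), with overlapping arrays.

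Glycam1, a sulphated mucin of high endothelial venules, read 7.24, 7.82 and 5.50 in aged knockout and 4.27, 3.81, 3.94 and 3.66 in aged MR-intact aorta. Young MR-intact readings were 3.57, 3.58 and 4.13, and young knockout readings 3.94, 3.98 and 6.93. Young knockout array 3 lay above aged knockout array 3 and next to arrays 1 and 2. On 7 arrays the reading was under the lower quartile, so the low side of the contrast may be background. Its means were ordered aged knockout, 6.85 ± 1.21 (SD, n = 3), young knockout, 4.95 ± 1.72 (SD, n = 3), aged MR-intact, 3.92 ± 0.26 (SD, n = 4), and young MR-intact, 3.76 ± 0.32 (SD, n = 3), the last pair within their spread. The aged genotypes differed by 2.93 (SE 0.66, limma adjusted p = 0.074).

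Madcam1, the addressin of mucosal venules that binds the integrin alpha4 beta7, did not follow this pattern. It read 4.22, 4.52 and 4.25 in aged knockout, 4.10, 4.45, 4.17 and 3.63 in aged MR-intact, 4.05, 4.17 and 4.29 in young MR-intact and 4.30, 4.22 and 3.89 in young knockout aorta. Young knockout array 3, high for Glycam1, was the lowest young array for Madcam1. That reading, and the 3.63 on aged MR-intact array 4, lay under the array's lower quartile and may be background. All groups overlapped, with means of 4.33, 4.17, 4.14 and 4.09 in aged knockout, young MR-intact, young knockout and aged MR-intact aorta, and the aged genotypes differed by 0.24 (SE 0.17, limma adjusted p = 0.485).

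**Figure D1:**
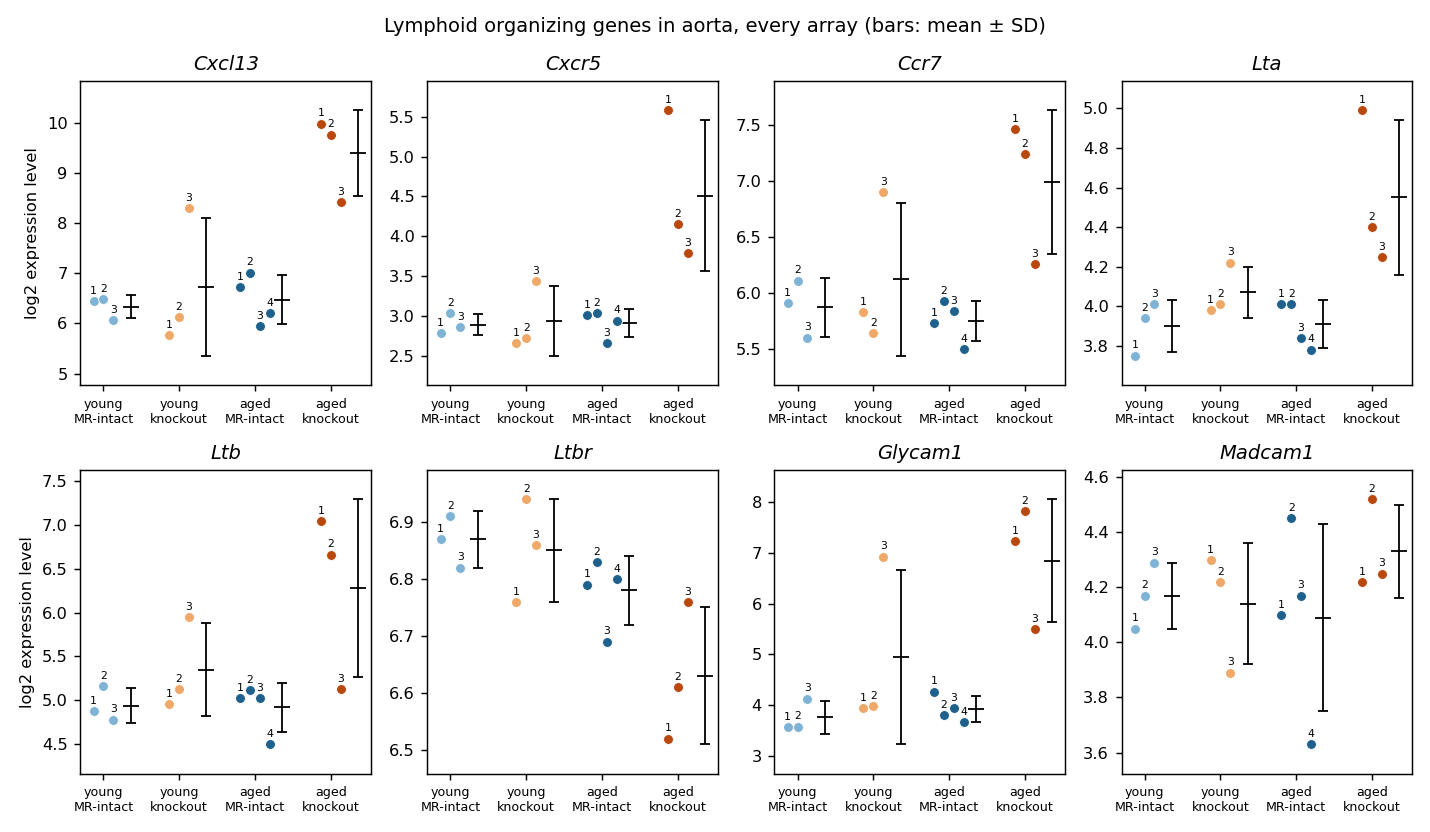
Log2 expression level (vertical axes, own scale for each gene) of the 8 measured genes on all 13 arrays, by group. Points are arrays with their replicate numbers and bars are the mean ± SD. Aged knockout arrays and young knockout array 3 stood high for Cxcl13, Cxcr5, Ccr7, Lta and Glycam1, while Ltbr and Madcam1 overlapped between the aged genotypes.

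Tests across all genes compared the groups. Comparing aged knockout with aged MR-intact aorta asks whether loss of the receptor in smooth muscle goes with other levels of these genes in old vessels. Of the 8 genes, 0 were called at an adjusted p under 0.05 in limma, where 0.0565% of all genes were called, and 6 had an unadjusted p under 0.05, all higher, where 17.6% of all genes had one. Cxcl13, Cxcr5, Ccr7, Lta, Ltb and Glycam1 had knockout arrays that all lay above the MR-intact ones, as did 5.25% of all genes (5.11% lay below). The median difference of the 8 was 1.30, against 0.02 over all genes. The values depended on arrays: without aged knockout array 3 limma called all 6, in a setting that called 1442 of all 21225 genes (6.79%), at 3.40 for Cxcl13 (adjusted p = 0.00689), 1.96 for Cxcr5 (adjusted p = 0.00712), 1.60 for Ccr7 (adjusted p = 0.0103), 3.61 for Glycam1 (adjusted p = 0.011), 0.78 for Lta (adjusted p = 0.0134) and 1.93 for Ltb (adjusted p = 0.00276). Without young knockout array 3, which enters only the shared spread, Cxcl13 (adjusted p = 0.00874) and Glycam1 (adjusted p = 0.0234) were called beside 0.419% of all genes, and without aged MR-intact array 2 Cxcl13 was called at 3.10 (adjusted p = 0.0439) beside 0.923%. Without aged knockout array 1 no member was called, beside 0.419% of all genes, and Cxcr5 differed by 1.06 (limma adjusted p = 0.0504). Without aged knockout array 2 the count was again 0, beside 0.122% of all genes. In this tissue RNA, a larger number of cells of a type and more RNA per cell cannot be told apart.

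Aging in knockout aorta was compared over the same aged knockout arrays, so the values of both contrasts share them. Here 0 of 8 genes were called, against 0.735% of all genes, and 7 had an unadjusted p under 0.05 (6 higher and 1 lower), against 15.8%. Cxcl13 differed by 2.65 (SE 0.57, limma adjusted p = 0.0561) and Cxcr5 by 1.57 (SE 0.36, limma adjusted p = 0.0636). For Glycam1 the difference was 1.91 (adjusted p = 0.209), for Ltb 0.93 (adjusted p = 0.28), for Ccr7 0.86 (adjusted p = 0.222) and for Lta 0.48 (adjusted p = 0.166). Ltbr was lower by 0.22 on the aged arrays (adjusted p = 0.186) and Madcam1 differed by 0.19 (adjusted p = 0.669). Without young knockout array 3, Cxcl13 differed by 3.44 (adjusted p = 0.00669), Glycam1 by 2.90 (adjusted p = 0.0287) and Cxcr5 by 1.82 (adjusted p = 0.0498), all called by limma, as were 0.994% of all genes. Without aged knockout array 3, 5 genes were called, Cxcl13 (3.14), Cxcr5 (1.93), Ltb (1.50), Ccr7 (1.23) and Lta (0.62), in a setting that called 885 of all genes (4.17%) in place of 156. Without aged knockout array 1, Cxcr5 was called at 1.03 (adjusted p = 0.0415), beside 1.36% of all genes. Of the Cxcr5 readings in that comparison, only that on aged knockout array 2 was not under the lower quartile, at 4.15 against 4.14.

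In young aorta, knockout and MR-intact arrays overlapped for all 8 genes. None was called, against 0% of all genes, and 0 had an unadjusted p under 0.05 in limma, against 2.59%. Over all genes 5.43% lay wholly higher and 4.06% wholly lower in these groups. Glycam1 showed the largest difference, 1.19 (SE 0.71, limma adjusted p = 1). Cxcl13 differed by 0.40 (SE 0.57), Ltb by 0.41 (SE 0.40) and Ccr7 by 0.25 (SE 0.33). These values came largely from young knockout array 3, which read 2.97 above the mean of young knockout arrays 1 and 2 for Glycam1, 2.35 for Cxcl13, 1.16 for Ccr7 and 0.90 for Ltb. Without it the young differences were -0.38 for Cxcl13, -0.14 for Ccr7 and 0.20 for Glycam1.

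Aging in MR-intact aorta gave differences within 0.16 of 0 for all 8 genes. None of the 8 genes was called by limma, against 0.236% of all genes, none had an unadjusted p under 0.05, against 8.63%, and the groups overlapped for all 8, where 6.05% of all genes lay wholly higher and 4.80% wholly lower. Cxcl13 differed by 0.14 (SE 0.53), Glycam1 by 0.16 (SE 0.66) and Ccr7 by -0.12 (SE 0.31), with adjusted p-values of 0.826 to 0.996 over the 8 genes. For Cxcl13 and Glycam1 an SE of that size leaves room for an age difference of more than 1 on the log2 scale.

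The remaining contrasts combine these. For the mean of the knockout effects at both ages, 0 of 8 genes were called in limma, against 0% of all genes, and 6 had an unadjusted p under 0.05, against 10.9%. Glycam1 differed by 2.06 (SE 0.48, limma adjusted p = 0.325) and Cxcl13 by 1.66 (SE 0.39, limma adjusted p = 0.325). Without aged knockout array 3, limma called 5 of the 8, Cxcl13, Glycam1, Ccr7, Lta and Ltb, and 292 of all genes (1.38%). The difference of the aging effect between the genotypes, which asks whether aging differs with the receptor, was called for 0 of 8, against 0% of all genes, and 3 had an unadjusted p under 0.05, against 8.12%. It was 2.52 (SE 0.78) for Cxcl13, 1.55 (SE 0.49) for Cxcr5, 1.75 (SE 0.97) for Glycam1 and 0.99 (SE 0.45) for Ccr7, with limma adjusted p-values of 0.609 or 0.641.

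**Figure D2:**
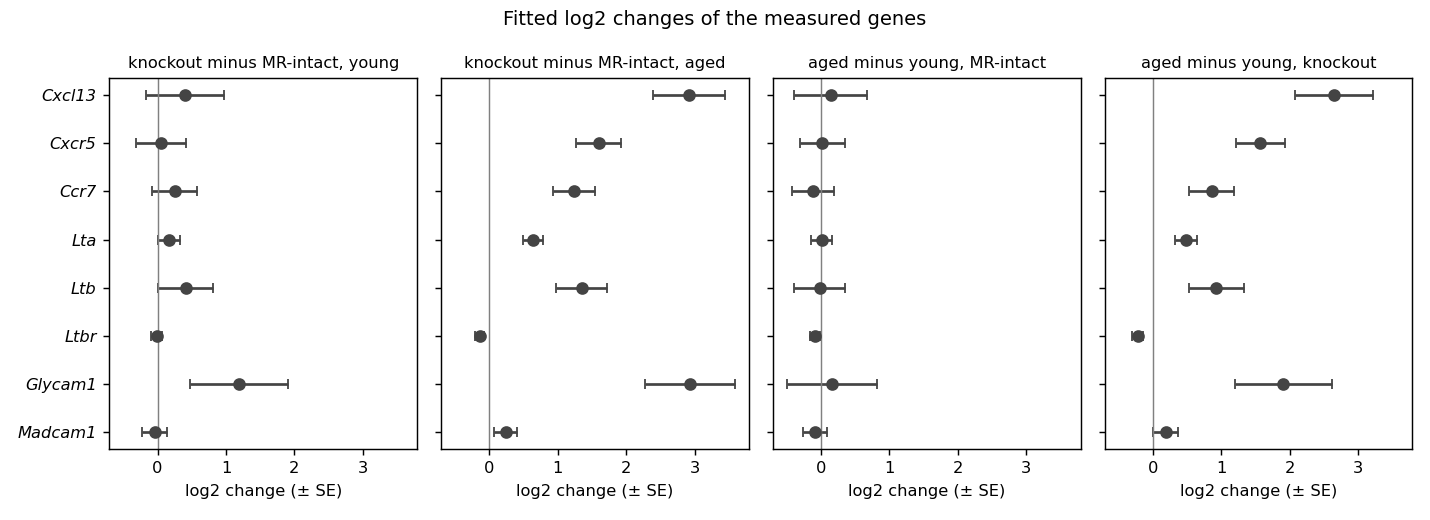
Fitted log2 change (horizontal axis, point and SE) of the 8 genes in 4 contrasts, from the limma fit over all 13 arrays. Positive values mean a higher level in knockout (left pair of panels) or in aged (right pair) aorta. Between the aged genotypes the fitted values were 2.92 for Cxcl13 and 2.93 for Glycam1, whose low readings may be background, and aging in MR-intact aorta stayed between -0.12 and 0.16.

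The arrays within the aged knockout group differed from each other in these genes. Aged knockout array 1 exceeded array 3 by 1.91 for Ltb, 1.79 for Cxcr5, 1.75 for Glycam1 and 1.57 for Cxcl13, and array 2 exceeded array 3 by 2.33 for Glycam1 and 1.53 for Ltb. Leaving out aged knockout arrays 1 and 2 together leaves a single aged knockout array that is taken to vary like the other groups. Then Cxcl13 differed by 1.95 between the aged genotypes, Glycam1 by 1.58, Cxcr5 by 0.88 and Ltb by 0.20. With so few arrays these are sizes only, and no test result is given for them.

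**Figure D3:**
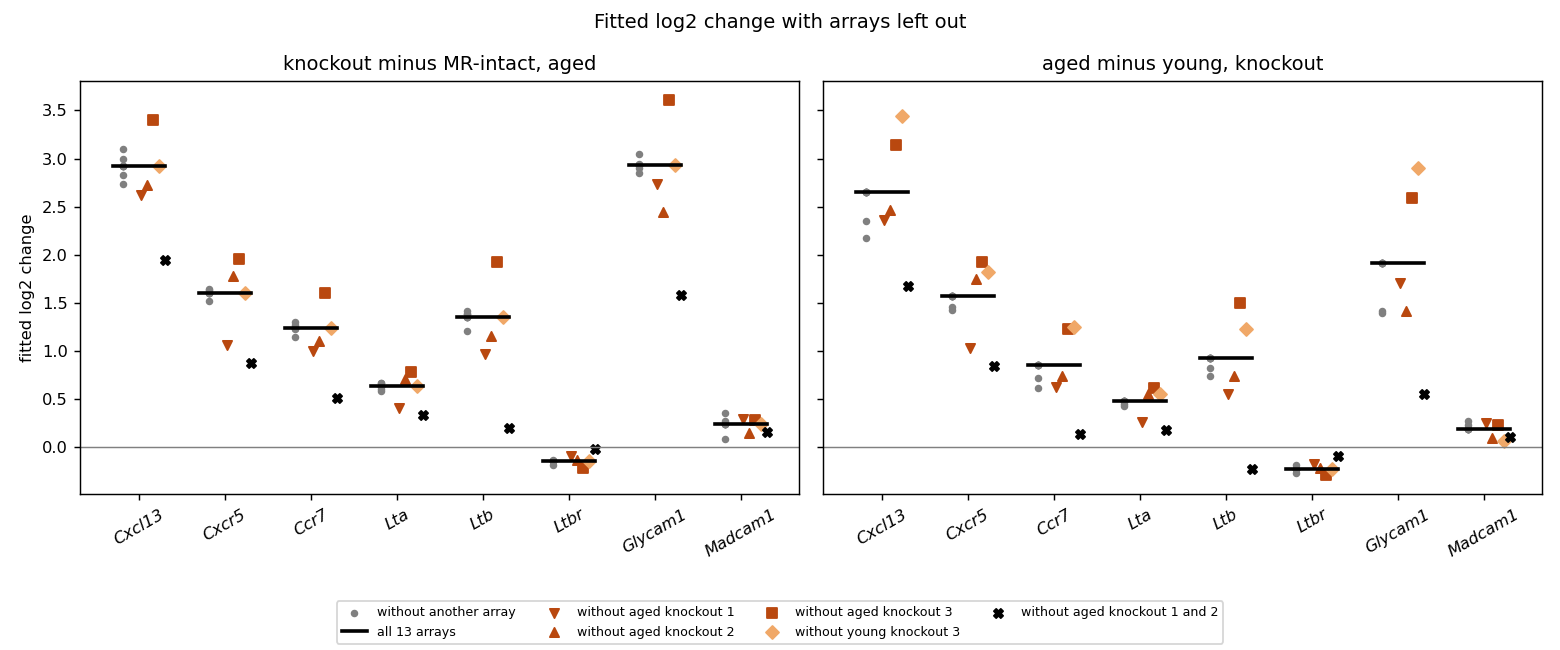
Fitted log2 change (vertical axis) between the aged genotypes (left) and with age in knockout aorta (right), for each of the 8 genes, from all 13 arrays (line) and with arrays left out (symbols). Without aged knockout arrays 1 and 2 the aged genotype difference was 1.95 for Cxcl13 and 0.20 for Ltb, and without array 3 it was 3.40 and 1.93.

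B lymphocyte markers were high on the same arrays as Cxcl13, Cxcr5, Ccr7, Lta and Glycam1, a pattern that Ltbr and Madcam1 did not share. The mean of 12 B lymphocyte markers was 8.42, 6.70 and 6.56 on the aged knockout arrays and 6.56 on young knockout array 3, against 5.10 to 5.64 on the other 9 arrays. All 12 read higher on every aged knockout array than on the aged MR-intact ones, and 0 of 12 were called by limma (lowest adjusted p = 0.0686, and 12 with an unadjusted p under 0.05), where 5.25% of all genes lay wholly higher and 17.6% had such a p. Only 0.0565% of all genes were called between these groups. T lymphocyte markers averaged 5.53 to 6.69 in aged knockout and 5.19 to 5.57 in aged MR-intact aorta, and plasma cell markers 5.90 to 7.18 and 4.99 to 5.26. The T marker means of these groups overlapped, with 5.53 on aged knockout array 3, and young knockout array 3 read 5.70. Dendritic cell markers averaged 5.46 to 6.06 and 5.23 to 5.36 in the same groups. With age in knockout aorta, all 12 B lymphocyte markers had an unadjusted p under 0.05, all higher, against 15.8% of all genes. There limma called 1 plasma cell marker, Slamf7 (1.72, SE 0.35, adjusted p = 0.0482), and 1 T lymphocyte marker, Cd3g (1.76, SE 0.36, adjusted p = 0.0489), where 0.735% of all genes were called. These 2 calls were not repeated with arrays left out. Whether these cells account for the readings of the 8 genes was not tested.

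The genes did not all track the B lymphocyte markers from array to array. Between aged knockout arrays 1 and 2 the B marker mean differed by 1.71 and Cxcr5 by 1.43, while Cxcl13 and Ccr7 each differed by 0.22 and Glycam1 read 0.58 lower on array 1. Aged knockout array 3 and young knockout array 3 had the same B marker mean and differed by 0.11 in Cxcl13, but Glycam1 was 1.43, Ltb 0.82 and Ccr7 0.63 lower on the aged array. These are differences between single arrays with no replicate check.

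**Figure D4:**
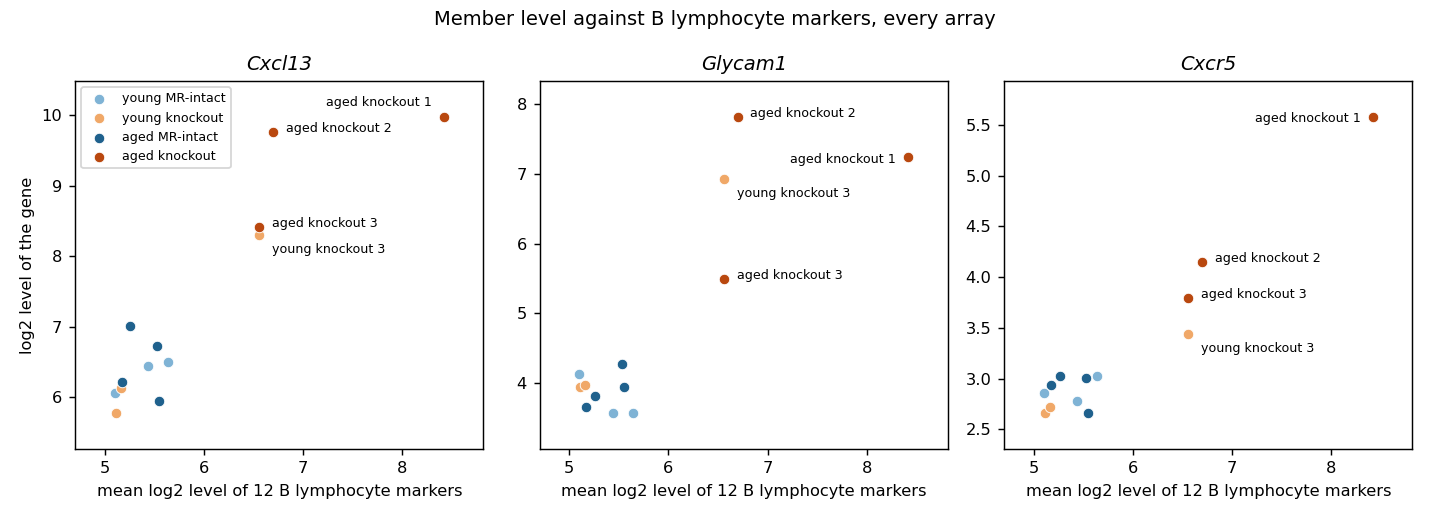
Log2 level of Cxcl13, Glycam1 and Cxcr5 (vertical axes) against the mean log2 level of 12 B lymphocyte markers (horizontal axis), 1 point per array, coloured by group. Aged knockout array 2 read 9.76 for Cxcl13 and 7.82 for Glycam1 at a B marker mean of 6.70, whereas array 1 read 9.98 and 7.24 at 8.42.

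Other tissues also varied between arrays. Liver markers averaged 6.80 on aged knockout array 2 and 4.37 to 5.48 on the arrays outside the aged knockout group, and smooth muscle markers averaged 10.13 on array 2. Skeletal muscle markers averaged 7.58 on young knockout array 3, the array that stood apart for the organizing genes, against 5.79 and 5.86 on young knockout arrays 1 and 2, but also 7.87 and 7.59 on young MR-intact arrays 1 and 2. Between the aged genotypes, the median log2 differences of the other marker lists were 0.43 for lymphatic endothelium, 0.04 for blood endothelium, 0.03 for macrophages, -0.42 for smooth muscle, -0.34 for fibroblasts, 0.09 for adipocytes, 0.59 for liver and 0.22 for skeletal muscle, with 0 genes called in each by limma. Only 0.0565% of all genes were called there. Against 17.6% of all genes, an unadjusted p under 0.05 was found for 7 of 7 smooth muscle and 4 of 6 fibroblast genes, all lower. The same held for 2 of 6 lymphatic endothelium genes, 1 of 6 adipocyte genes and 1 of 6 liver genes, all higher, for 1 higher and 1 lower of 6 macrophage genes, and for 0 of 6 blood endothelium and 0 of 6 skeletal muscle genes. Aged knockout arrays lay wholly below the aged MR-intact ones for 0 of 7 smooth muscle and 3 of 6 fibroblast genes, against 5.11% of all genes. The part of these tissues and cell types in the readings of the organizing genes was not tested.

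**Figure D5:**
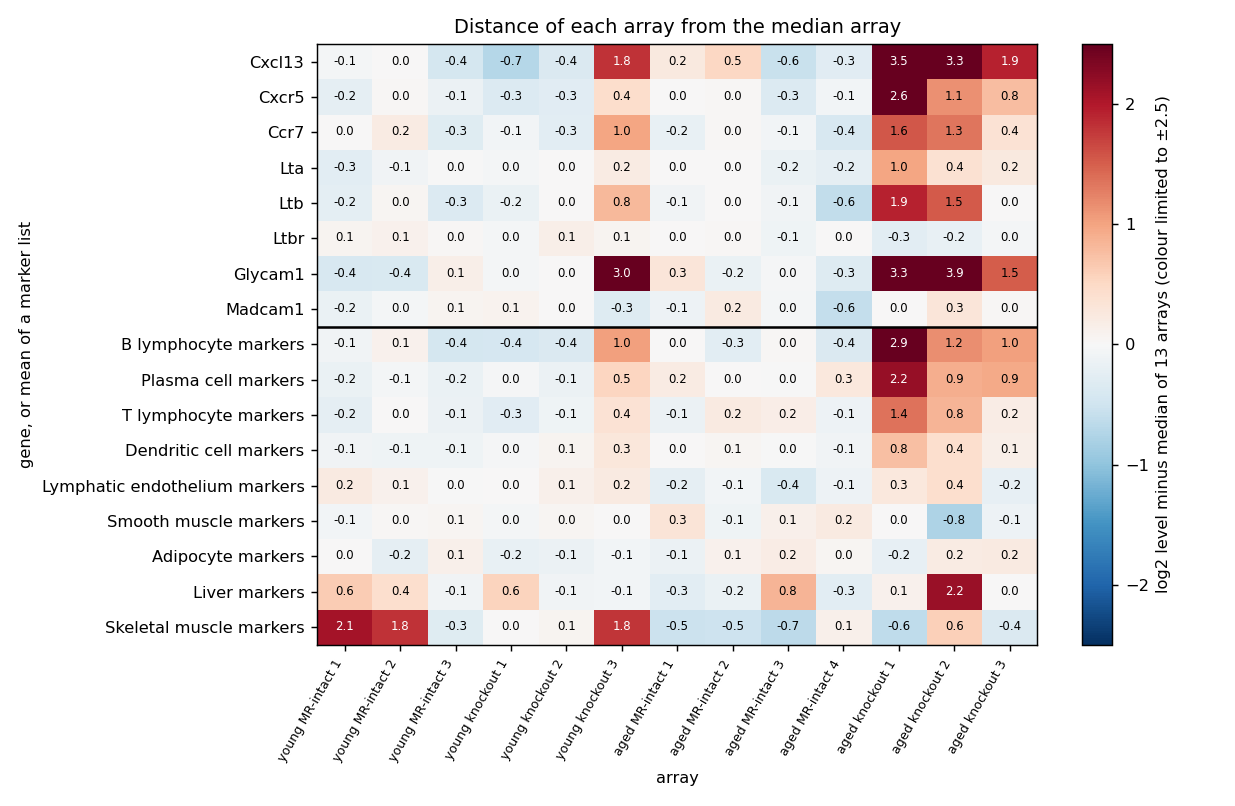
Distance of each array (columns) from the median of the 13 arrays, in log2 units, for the 8 genes (above the line) and for the mean of 9 marker lists (below it). Cxcl13, Glycam1 and the B lymphocyte markers were high on the 3 aged knockout arrays and on young knockout array 3, and the liver markers on aged knockout array 2.

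The rest of the pathway was read from 4 lists. Among 15 genes of the lymphotoxin and non-canonical NF-kB pathway, 0 were called between the aged genotypes, and 9 higher and 1 lower had an unadjusted p under 0.05 in limma. Of all genes, 0.0565% were called and 17.6% had such a p, and the counts of all 4 lists are to be read against these shares. The largest differences were 0.49 for Tnf (SE 0.15, adjusted p = 0.12), a cytokine that shares functions with lymphotoxin, and 0.42 for Birc3 (SE 0.13, adjusted p = 0.119), an inhibitor of the non-canonical kinase. The list's median was 0.27 against 0.02 over all genes. Tnfrsf11a, the receptor RANK, read lower by 0.38 (adjusted p = 0.208).

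Among 18 genes of high endothelial venules and lymphocyte homing, 0 were called and 4 higher and 1 lower had an unadjusted p under 0.05. Itga4, a subunit of the integrin that binds Madcam1, read 8.01, 7.50 and 6.68 in aged knockout and 6.23 to 6.61 in aged MR-intact aorta, a difference of 1.01 (SE 0.24, limma adjusted p = 0.0791). Young knockout array 3 read 7.19 for Itga4, above aged knockout array 3. Its partner Itgb7 differed by 0.47 (SE 0.17, adjusted p = 0.179). Cd34, a sialomucin of endothelium and progenitor cells, read lower by 0.39 (adjusted p = 0.216).

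Stromal, follicular and B cell survival genes gave 0 called of 19, with 8 higher and 1 lower at an unadjusted p under 0.05. Cr2, a complement receptor of B cells and follicular dendritic cells, read 6.90, 5.54 and 4.83 in aged knockout and 3.39 to 3.97 in aged MR-intact aorta, a difference of 2.10 (SE 0.45, limma adjusted p = 0.0686). Cxcr4, the receptor for Cxcl12, differed by 1.12 (SE 0.22, adjusted p = 0.0605), Il7r, the interleukin 7 receptor chain, by 1.41 (SE 0.38, adjusted p = 0.0984) and Tnfrsf13c, the receptor for the B cell survival factor BAFF, by 1.29 (SE 0.34, adjusted p = 0.0906). Of 8 genes of the lymphoid tissue inducer programme 7 were measured and 0 called, with 3 higher and 1 lower at an unadjusted p under 0.05. Nfil3 differed by 0.74 (SE 0.31, adjusted p = 0.243), Tox by 0.65 (SE 0.20, adjusted p = 0.121) and Id2, a regulator that inducer cells need, by -0.45 (SE 0.14, adjusted p = 0.121).

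For the 6 members whose log2 levels spanned more than 1, the most similar genes over the 13 arrays were taken by Pearson correlation. The search covered 17784 genes, leaving out antigen receptor segments, small RNAs, olfactory and vomeronasal receptors and gene models with provisional names. The values describe these arrays, which share the same few high ones. Cxcl13 was closest to Cd52 (r = 0.97) and to Ifi209 and Psmb8 (r = 0.96 each), Cxcr5 to Icos, Cxcr4 and Bcl11a (r = 0.98 each) and Ccr7 to Selplg and Grap2 (r = 0.98 each). Lta was closest to H2-Oa and Nfkbie, Ltb to Ctsw, Cd5 and Rasal3, all at r = 0.98, and Glycam1 to F8, Csf2rb2 and Ms4a4b at r = 0.95. Without aged knockout arrays 1 and 2, the 2 farthest from the median, these correlations were 0.87 to 0.97. The rank correlation with Csf2rb2 was 0.64 for Glycam1 and that with Ms4a4b 0.58.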

How the data were processed

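RNA from mouse aorta was measured on 13 arrays, and log2 values per gene are what the authors deposited. Per the submitters' processing notes RMA, affy and limma were used. Platform, chip definition and genome build: not given in the sources used here. Both deposited tables held the same values to within 0.005. Names came from the RefSeq gene table for 20768 genes and from the file for 457.

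A limma model (3.58.1 in R 4.3.3) was fitted to all 21225 genes and 13 arrays with 4 group coefficients, and 6 contrasts were tested two-sided with Benjamini-Hochberg adjustment at 0.05 (residual degrees of freedom 9, prior 3.41). The script was tested on simulated data. Alternatives changed the value table, centring, quantile normalization, dim genes, variance model, array weights, groups fitted, arrays left out and the replicate block. The number of arrays limits precision.

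The genes, lists and tests were chosen with earlier results of these data known. All 10 listed genes are named, and per pathway list the genes with the largest differences, apart from 1 list gene that is not reported here.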

Additional observations from a re-analysis of the deposited data

Results flagged for a closer look

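Of 8 groups of 4 arrays tested for a stray value (the aged MR-intact arrays of each gene), 1 was flagged, and chance flags about 1 in 20 such groups. Ltb read 4.50 on aged MR-intact array 4, against 5.03, 5.12 and 5.03 on the other aged MR-intact arrays.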

How the results depend on the processing

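Counts of called members (0 in all 6 contrasts) changed as follows. For aging in knockout aorta, the main fit called 156 of all 21225 genes. Centring the arrays gave 1 member, Cxcl13, beside 212 of all genes, and a second quantile normalization gave Cxcl13 beside 271. Dropping the dimmest tercile (5 members tested) also gave 1, Cxcl13, beside 241 of the 14150 genes kept. These 3 settings thus called more genes in general. Array weights gave 1, Cxcr5, beside 152 of all genes. Leaving out arrays 1 at a time gave 0 to 5, beside 14 to 885 of all genes. Without aged knockout 1 and young knockout 3 together the count was 3, beside 360. Leaving out aged knockout 1 and 2 and young knockout 3 was an alternative chosen after seeing the data. It left 1 aged knockout array, so no count is given for it. Between the aged genotypes, where the main fit called 0.0565% of all genes, centring gave 1 (Cxcl13), beside 0.542%. Arrays left out 1 at a time gave 0 to 6, beside 0.0141% to 6.79%. Leaving out the pair aged knockout 1 and young knockout 3 gave 3, beside 0.895%. The mean of both ages gave 0 to 5 over arrays left out 1 at a time, beside 0% to 1.38% of all genes. For the difference of aging, leaving out aged knockout 1 and young knockout 3 gave 1 (Cxcr5), beside 0.151%. In the main fit both contrasts called 0% of all genes. The cause was not tested.

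Of the single-gene values, 38 turned sign, all of differences not called. With array weights, aging in MR-intact aorta was -0.02 for Cxcl13, -0.06 for Cxcr5 and -0.0073 for Lta, and the young genotype difference -0.05 for Cxcr5 and 0.0059 for Ltbr. Centring gave -0.0018 for Cxcr5 and -0.0079 for Lta with age in MR-intact aorta. Without aged knockout 1 and young knockout 3, and also without those and aged knockout 2, the young genotype difference was -0.38 for Cxcl13, -0.20 for Cxcr5, -0.14 for Ccr7 and 0.09 for Madcam1, and in the larger set aging in knockout aorta was -0.01 for Madcam1. Without aged knockout 1 and 2, Ltb differed by -0.22 with age in knockout aorta and by -0.20 in the difference of aging. With arrays left out 1 at a time, aging in MR-intact aorta ranged from -0.04 to 0.31 for Cxcl13, -0.04 to 0.10 for Cxcr5, -0.06 to 0.07 for Lta, -0.10 to 0.12 for Ltb and -0.21 to 0.07 for Madcam1, and the young genotype difference from -0.38 to 0.88 for Cxcl13, -0.20 to 0.19 for Cxcr5, -0.14 to 0.49 for Ccr7, -0.06 to 0.03 for Ltbr and -0.12 to 0.09 for Madcam1.

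Among MR-intact arrays, deviations of young and aged arrays with the same number after the title letter were hardly correlated (-0.07, 0.04 and 0.08). No label states that this number pairs arrays. Whether knockout arrays were paired with MR-intact ones was not tested. With the replicate block, over MR-intact arrays only, 0 members were called, Ltb differed by 0.12 and Madcam1 by 0.07, and the count over all genes for aging in MR-intact aorta went from 50 to 1. Over all genes, aging in knockout aorta gave 156 calls and between 1 (only the groups compared) and 885 (without aged knockout 3) under the alternatives, and the aged genotype contrast 12 and between 0 and 1442. Aging in MR-intact aorta gave between 1 and 489 and the mean of both ages 0 to 292. Centring gave 69 higher and 143 lower for aging in knockout aorta against 67 and 89. Members under an array's lower quartile, Cxcr5, Lta and Glycam1, and Madcam1 on 2 arrays, may be background on the low side.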
